A study of Drosophila melanogaster with 8 samples.

Results

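The larval serum protein genes Lsp1alpha, Lsp1beta, Lsp1gamma and Lsp2 were examined in adult flies across 4 diets and both sexes. They were chosen by their symbols in the deposited tables, with earlier results of these data known, and are 4 of 17655 genes. They are also the only 4 genes that the deposited annotation places in the larval serum protein complex. Lsp1beta and Lsp2 were detected in both sexes and were highest on the normal diet, Lsp1alpha was detected in 1 library, and Lsp1gamma was listed at 0 throughout.

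Larval serum proteins are hexamerins, storage proteins that the larval fat body makes in large amounts and secretes into the haemolymph, the insect blood. Before metamorphosis the fat body takes them back up through a receptor encoded by Fbp1, and their amino acids, rich in aromatic residues, are used to build adult tissue. The alpha, beta and gamma subunits of Lsp1 assemble with each other, whereas Lsp2 forms a hexamer of its own and is known also from adult fat body. Hexamerins derive from the hemocyanin family, to which the prophenoloxidases of the blood cells also belong.

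The flies were wild-type Drosophila melanogaster of the Canton S strain and were 15 days old when RNA was extracted. Each group spent 7 days on 1 of 4 foods, namely normal food (ND), food rich in fat (HFD), HFD with quercetin glucoside (HFD+QG) or HFD with epigallocatechin gallate (HFD+EGCG), followed by 2 h on standard food to empty the gut. Quercetin glucoside is a plant flavonol joined to a sugar, and epigallocatechin gallate is the main catechin of green tea. Total RNA came from the body after removal of wings and legs, so each value averages over all tissues left in it. Every diet and sex had 1 library. The labels used here give neither the number of flies in a library nor the doses of the compounds nor the composition of the diets. Each p-value below rests on scatter between single libraries, which may be technical, and on responses that the fitted model leaves out.

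Across the 8 libraries the summed FPKM lay between 885956 and 1000513, with 12758 to 12892 genes above 0 in males and 9473 to 9844 in females. FPKM (fragment counts scaled for transcript length and library size) allows for transcript length, so levels of different genes may be set side by side. The deposited values were whole numbers, so a transcript listed at 0 can hold any amount under 0.5 FPKM or an estimate that failed. A listed 0 also occurred in an abundant gene, Cyp4g1, which makes cuticle hydrocarbons in oenocytes. It was listed at 9209 and 9726 FPKM in males on ND and HFD and at 0 in both male polyphenol libraries. In females it was at 2251 to 7322 FPKM. Why Cyp4g1 was listed at 0 was not tested. Markers of larval tissue were nearly absent from the bodies. Of 14 genes for salivary glue, larval cuticle and similar larval products, 12 to 14 were at 0 in each library and their FPKM summed to 0 to 2.

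The 4 genes lie apart in the genome and are all on the forward strand. Lsp1alpha (FBgn0002562) occupies X:12490291-12492982, Lsp1beta (FBgn0002563) 2L:898500-901316, Lsp1gamma (FBgn0002564) 3L:66430-68995 and Lsp2 (FBgn0002565) 3L:12129393-12131869, in the coordinates of the deposited tables, which are the same in BDGP6.54. The annotated transcripts of the Lsp1 genes have 2 exons and those of Lsp2 have 1. Lsp1beta has 2 annotated transcripts, and the whole signal was assigned to FBtr0078025, of 2605 bases, in every library. For Lsp2 the 2304-base transcript FBtr0089324 carried all of the female signal and 8 of the 9 FPKM in ND males. The longer FBtr0345352, of 2477 bases, held the remaining 1 FPKM in ND males and the only 1 FPKM in HFD males. The Lsp1 subunit genes resemble each other, and how the authors' software shared out reads that match several of them adds uncertainty to their values.

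Lsp1beta was the most abundant of the 4 genes in every library. In males it stood at 71 FPKM on ND, 15 on HFD, 24 on HFD+QG and 19 on HFD+EGCG. In females the corresponding levels were 367, 29, 16 and 12 FPKM. In each sex the ND library lay above the 3 high-fat libraries, and those 3 spanned overlapping ranges in the sexes. Among genes above 0, Lsp1beta ranked 312 of 9473 from the top in ND females and 1687 of 12892 in ND males. Its rank on the high-fat diets was 3479 to 6261 in females and 4468 to 6195 in males.

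Lsp2, the second hexamerin of the fly, was at 9, 1, 0 and 0 FPKM for males and at 123, 2, 2 and 0 FPKM for females, in the same order of diets. Its rank in ND females was 899 and in ND males 7878. Every high-fat value of Lsp2 lay within 2 FPKM of 0, where whole numbers resolve little. Lsp1alpha, the alpha subunit, was listed at 12 FPKM in ND females, 3.27% of the Lsp1beta level in that library, and at 0 in the other 7 libraries. Lsp1gamma, the gamma subunit, was at 0 in all 8. Together the 4 genes summed to 80, 16, 24 and 19 FPKM for males and to 502, 31, 18 and 12 FPKM for females. In ND females this sum was 0.0565% of all FPKM, and in ND males 0.00852%.

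**Figure D1:**
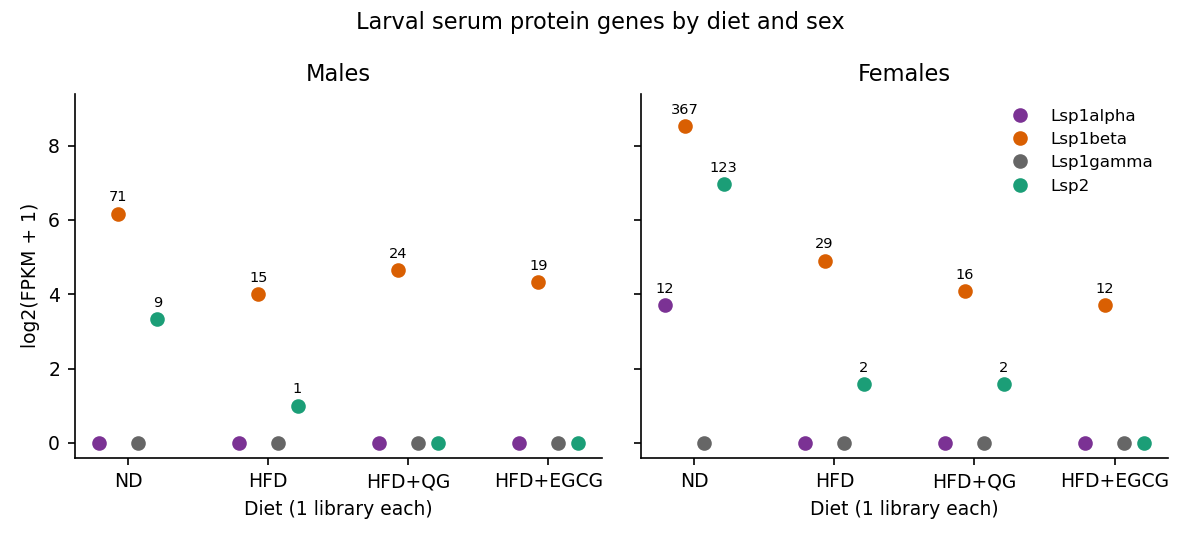
Level of each larval serum protein gene as log2(FPKM + 1) in the 8 libraries, males left and females right, with the FPKM printed above each point that is not 0; each point is 1 library, so there are no error bars. The ND points of Lsp1beta (71 and 367 FPKM) and Lsp2 (9 and 123 FPKM) lie above all high-fat points of their sex.

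The first comparison asked what a high-fat diet does to these genes. The HFD, HFD+QG and HFD+EGCG values of a sex are all compared with the same ND library, so the 3 differences are not independent. Lsp1beta was 4.73-fold higher on ND than on HFD in males, 2.96-fold higher than on HFD+QG and 3.74-fold higher than on HFD+EGCG. In females the corresponding folds were 12.7, 22.9 and 30.6. On the log2(FPKM + 1) scale, which understates the change of genes at low levels, the mean of the 3 high-fat libraries minus ND was -1.85 in males and -4.29 in females. Lsp2 was 9.0-fold higher on ND than on HFD in males and was listed at 0 on both polyphenol diets. In females it was 61.5-fold higher on ND than on HFD and on HFD+QG, and listed at 0 on HFD+EGCG. Its signed log2 differences of the high-fat mean from ND were -2.99 in males and -5.90 in females. Lsp1alpha differed by -3.70 in females on each high-fat diet, with every high-fat library listed at 0. In whole bodies, fewer cells that express these genes, a different share of other tissues and less RNA per cell cannot be told apart.

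These differences were set beside those of all genes. Genes at 1 FPKM or more in at least 1 library of each sex were tested across sexes, which left 9848 genes and 2 of the 4 Lsp genes, Lsp1beta and Lsp2. Lsp1alpha and Lsp1gamma did not pass this filter, and in males Lsp2 met it only in the ND and HFD libraries (9 and 1 FPKM). At least 2-fold lower values than ND in all 3 high-fat libraries were found for both Lsp1beta and Lsp2 in males, against 102 of all genes tested (1.04%). In females both met the same rule, against 129 of all genes (1.31%). For HFD alone, levels at least 2-fold under ND were found for 293 genes (2.98%) in males and for 514 (5.22%) in females. Both genes were also among the 22 genes (0.223%) that met the rule in each sex.

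**Figure D2:**
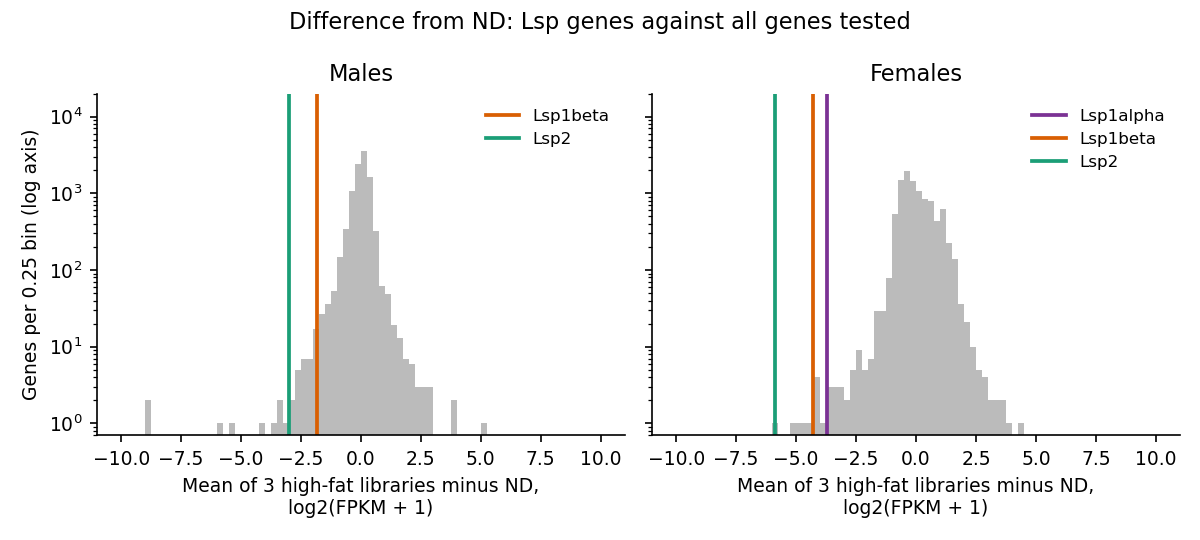
Number of genes (log axis) by the mean log2(FPKM + 1) of the 3 high-fat libraries minus that of ND, over the 9848 genes tested, males left and females right; coloured lines mark the Lsp genes, of which Lsp1alpha is outside the 9848. Lsp1beta lies at -1.85 in males and -4.29 in females and Lsp2 at -2.99 and -5.90, all in the lower tail.

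The sexes gave the only replication of a diet, in an additive model of sex and diet fitted with limma to all 8 libraries. Its SEs, intervals and p-values therefore take in any unequal response of males and females to a food, besides scatter between libraries. In that model Lsp1beta differed between HFD and ND by -2.89 (SE 0.76, 95% interval -4.82 to -0.97), with a limma p of 0.0114 and an adjusted p of 0.30 over all genes. Lsp2 differed by -3.85 (SE 0.87, interval -6.05 to -1.64; limma p 0.00611, adjusted p 0.292). Over the mean of the 3 high-fat diets the change of Lsp2 was -4.44 (SE 0.71, interval -6.24 to -2.64), the lowest of all 9848 genes. Its limma p was 0.00127 and its adjusted p 0.181. That of Lsp1beta was -3.07 (SE 0.62, interval -4.64 to -1.50), the 9th lowest, with a limma p of 0.00374 and an adjusted p of 0.181. By limma p, Lsp2 ranked 65th and Lsp1beta 200th. The size for Lsp2 rests on high-fat values of 0 to 2 FPKM. As log2(FPKM + 5) it was -2.88, against -2.84 for Lsp1beta. Both intervals excluded 0 and both genes were lower in 6 of 6 high-fat libraries, but neither passed the adjustment. No gene of the 9848 passed it (0%) in either comparison, although limma gave 1336 and 1709 unadjusted p-values under 0.05. Limma without a trend also called 0 genes, with 1272 and 1626 such p-values. Without the ND male library, which leaves the female library as the only ND one, Lsp1beta and Lsp2 passed at -4.12 and -5.30 for HFD (limma adjusted p 0.0337 and 0.0240) and at -4.29 and -5.90 for the mean of the 3 diets (0.0255 and 0.0173). In that fit 3839 and 4375 genes passed in all, so the passing of both genes came with that of a large share of the genes tested.

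The size of the difference was then compared between the sexes, with the 3 high-fat libraries of a sex treated as repeats. Each sex has 1 ND library, so the SE, interval and p reflect scatter among the high-fat libraries alone and assume that ND would scatter alike. The high-fat change of Lsp1beta was lower in females than in males by a signed -2.44 (SE 0.72, interval -4.31 to -0.58; limma adjusted p 0.0479). For Lsp2 the difference was -2.91 (SE 1.12, interval -5.81 to -0.01), with a limma adjusted p of 0.0933. Of all genes 4208 (42.7%) passed in this comparison, 2553 of them (25.9%) with a lower and 1655 (16.8%) with a higher change in females, so a call here was common. After median centring, 1212 genes were lower and 2218 higher, against 2553 lower and 1655 higher without it. Lsp1beta sat close to the threshold. It did not pass with a pseudocount of 0.5 (adjusted p 0.0506) or without the filter (0.0911), and leaving out any single high-fat library other than HFD females also ended the call (limma adjusted p up to 0.0998).

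Sex by itself gave a mixed picture. On ND, Lsp1beta was 5.17-fold higher in females than in males, and on HFD 1.93-fold. On the polyphenol diets the order was the other way, with males 1.5-fold higher on HFD+QG and 1.58-fold on HFD+EGCG. Lsp2 was 13.7-fold higher in females on ND and at 2 against 1 FPKM on HFD. Averaged over diets, the female minus male difference of Lsp1beta was 0.52 (interval -0.84 to 1.88; limma adjusted p 0.424) and that of Lsp2 1.45 (interval -0.11 to 3.01; limma adjusted p 0.0853). By the same test 6594 genes (67%) differed between the sexes, 3902 of them (39.6%) higher in females. After median centring the split was 2961 higher and 3627 lower, against 3902 and 2692. The ratio of the genes to each other differed too. Lsp1beta exceeded Lsp2 by 7.89-fold in ND males, 2.98-fold in ND females, and 15.0-fold and 14.5-fold on HFD in males and females, the latter pair resting on 1 and 2 FPKM of Lsp2.

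The second comparison asked whether either polyphenol altered the genes on the high-fat diet. HFD+QG and HFD+EGCG share the HFD library as their reference, and whether their doses match is not stated in the labels used here. In males Lsp1beta was 1.60-fold higher on HFD+QG and 1.27-fold higher on HFD+EGCG than on HFD. In females it was lower, with HFD 1.81-fold above HFD+QG and 2.42-fold above HFD+EGCG. All 4 differences have no replicate check. Of these 4 Lsp1beta differences, only that of HFD+EGCG in females reached 2-fold on the log2(FPKM + 1) scale (-1.21, against -0.82 for HFD+QG). In that comparison 412 genes (4.18%) did so in either direction. The corresponding shares were 4.23% for HFD+QG in females and 2.71% and 3.16% for HFD+QG and HFD+EGCG in males. Lsp2 differed by 1 or 2 FPKM at most, going from 1 to 0 FPKM on both compounds in males and from 2 to 0 on HFD+EGCG in females. On the log2(FPKM + 1) scale these steps were -1.0 and -1.58, which also meet the 2-fold rule, but whole numbers barely resolve them.

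In the additive model the HFD+QG minus HFD difference of Lsp1beta was -0.09 (interval -2.01 to 1.84) and that of Lsp2 -0.50 (interval -2.70 to 1.70). For HFD+EGCG minus HFD the values were -0.44 (interval -2.37 to 1.48) and -1.29 (interval -3.50 to 0.91). Between the compounds, HFD+EGCG minus HFD+QG was -0.35 (interval -2.28 to 1.57) for Lsp1beta and -0.79 (interval -3.00 to 1.41) for Lsp2. The limma adjusted p was 1 in each of these 6 tests, and no gene passed in any of the 3 comparisons (0%), with 107, 102 and 83 unadjusted p-values under 0.05. Limma without a trend also called 0 genes, with 133, 131 and 102. Each interval includes 0 and extends beyond 2-fold in the lower direction, so the compounds are not shown to act alike on these genes, nor to leave them unaltered.

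**Figure D3:**
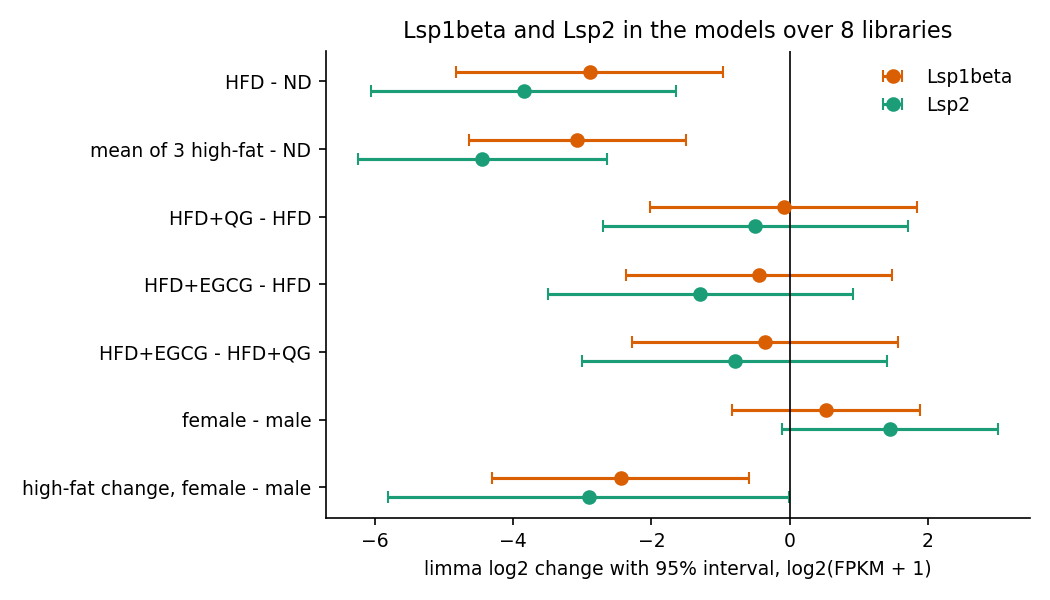
Change of Lsp1beta and Lsp2 in the limma models on the log2(FPKM + 1) scale for each comparison, points with 95% intervals over 8 libraries. Intervals of the comparisons with ND lie below 0 (for Lsp2 over 3 high-fat diets -6.24 to -2.64), and those between high-fat diets include 0.

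The receptor gene of the hexamerins was listed at 0 throughout, and their relatives were at low levels or at 0. Fbp1, the hexamerin receptor, and Fbp2, a further fat body protein gene of the late larva, were at 0 in all 8 libraries. PPO1, a prophenoloxidase of crystal cells, was at 4, 2, 2 and 2 FPKM for males and 4, 1, 1 and 1 for females, with diets in the order used above. PPO2, a second crystal cell prophenoloxidase, was at 7, 6, 6 and 5 FPKM and at 6, 4, 4 and 4. PPO3, known from lamellocytes, was at 0 in males and 1 FPKM in females. PPO1 and PPO2 were tested, and their median change over the 3 high-fat diets was -0.70, against -0.04 over all genes, with 0 of 2 called by limma. Of 10 genes with a hemocyanin feature in the deposited annotation, 3 were at 0 everywhere, namely Lsp1gamma, Fbp1 and CG7320.

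Other fat body genes were set beside the Lsp genes. Among secreted carriers, which ferry lipid, iron and yolk protein, 9 of 11 genes were tested and their median change over the 3 high-fat diets was -0.53. In each sex 1 of the 9 was at least 2-fold lower in all 3 high-fat libraries, beside 1.04% of all genes in males and 1.31% in females. Those were Obp99b in males and, in females, Yp3 at 6552, 1895, 2344 and 2518 FPKM. Yp1 (7367, 2385, 2966 and 3068 FPKM in females) and Yp2 (6531, 1189, 1576 and 1371) were at 0 in males and so were not tested. Tsf1, the iron carrier transferrin, was at 743, 252, 437 and 299 FPKM for males and at 290, 251, 266 and 207 for females. Obp99b, an odorant-binding protein gene, was at 87, 20, 15 and 11 FPKM for males and at 9, 3, 9 and 2 for females, so its ND library stood alone in males but not in females. The ferritin subunit genes of the same list went the other way in females, with Fer1HCH at 1413, 1284, 1267 and 1443 FPKM for males and 1817, 3135, 2368 and 2635 for females. Fer2LCH was at 1718, 1600, 1614 and 1886 FPKM and at 2297, 4361, 3274 and 3527. The 17 metabolic and regulatory genes had a median of -0.09. In females 2 of them were at least 2-fold higher than ND in all 3 high-fat libraries, as were 944 of all 9848 genes tested. The 2 were Cyp4g1 and sug, a sugar-responsive transcription factor gene at 70, 92, 88 and 90 FPKM for males and 40, 118, 97 and 129 for females. In males 0 of the 17 and 68 of all genes met that rule. In each sex 1 of the 17 was at least 2-fold lower in all 3 libraries. That gene, tobi, an alpha-glucosidase gene of the fat body and gut that insulin-like and adipokinetic hormones control, was at 273, 23, 36 and 47 FPKM for males and 59, 7, 4 and 5 for females. Limma called 0 genes of either list in the comparisons with ND. In the comparison of the sexes, 5 of the 17 metabolic genes had a higher high-fat change in females and 0 a lower one, where 16.8% of all genes were called higher and 25.9% lower and median centring turned that order. The yolk protein gene Yp3 was the 1 carrier called, with a lower change in females (-1.93, limma adjusted p 0.00478).

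Lists tied to amino acid use and to the hormones of metamorphosis were described in the same way. The 7 genes of aromatic amino acid breakdown had a median high-fat change of -0.28. Hn, phenylalanine hydroxylase, was at 94, 61, 63 and 59 FPKM for males and 46, 30, 27 and 39 for females, higher on ND in each sex. The 10 genes of amino acid transport and sensing had a median of 0.04. Thor, the translation inhibitor 4E-BP, was at 708, 549, 580 and 541 FPKM for males and at 232, 717, 628 and 723 for females, opposite in direction between the sexes (difference 1.91, limma adjusted p 0.00168). The 17 tested genes of ecdysone and juvenile hormone action, of 19 found, had a median of -0.11. EcR, the ecdysone receptor, was at 7, 4, 6 and 5 FPKM and at 20, 11, 15 and 14, and Kr-h1, a juvenile hormone response gene, at 27, 34, 39 and 33 and at 13, 30, 29 and 29. The 8 tested nutrient signals secreted by the fat body had a median of 0.03. CCHa2, a nutrient-dependent peptide hormone of fat body and gut, was at 90, 49, 49 and 42 FPKM for males and 29, 21, 18 and 18 for females. None of the genes of these 4 lists passed limma in the comparisons with ND. In the comparison of the sexes 0 and 1 of the aromatic breakdown genes were called higher and lower in females, 3 and 3 of the amino acid genes, 4 and 2 of the hormone genes and 2 and 0 of the nutrient signals, beside 16.8% and 25.9% of all genes.

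Tissue markers differed between the diets as well, and their part in the Lsp differences was not tested. The 6 fat body markers were all detected. Their summed FPKM was 1428 in ND males against 718 to 1032 on the high-fat diets, and 666 in ND females against 586 to 670. Much of the male difference came from Tsf1, at 743, 252, 437 and 299 FPKM, while Lsd-1 was at 185, 168, 212 and 194. The high-fat mean was under ND for 5 of the 6 markers in males and above it for 1, and for 3 and 3 in females. In neither sex was any of the 6 at least 2-fold lower in all 3 high-fat libraries. The 12 egg markers summed to 39662 FPKM in ND females and to 6485 to 12558 in high-fat females, against 11 to 14 in males. Among them Yp1, Yp2 and Yp3 are also on the list of fat body secreted carriers. These were at 7367, 6531 and 6552 FPKM in ND females and at 2385, 1189 and 1895 in HFD females, so the sum is not of egg genes alone. The mean of the high-fat libraries was above ND for 8 of 8 muscle markers in females and 6 of 8 in males (median differences 1.32 and 0.37, against -0.14 and 0.03 over all genes). Of 6 gut markers, 5 in females and 4 in males were at least 2-fold lower in all 3 high-fat libraries, beside 1.31% and 1.04% of all genes. The marker alphaTry met the rule in neither sex, at 2675, 2373, 1707 and 2964 FPKM for males and 4438, 3664, 3103 and 3596 for females. The 9 haemocyte markers summed to 65 FPKM in ND males against 38 to 50, and to 131 in ND females against 90 to 127. NimC1, eater and He of that list were at 0 in all 8 libraries, and Col4a1, vkg and Ppn gave most of each sum. In females Ppn, at 18, 23, 29 and 23 FPKM, was the 1 of 6 tested haemocyte markers with a high-fat mean above ND. The 7 male markers summed to 29690 to 42189 FPKM in males and to 0 or 1 in females.

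The genes whose pattern over the 8 libraries was closest to an Lsp gene were ranked among 6123 genes at 10 FPKM or more in at least 1 library of each sex, with the other Lsp genes ranked too, by the root mean square difference in log2(FPKM + 1) after centring within each sex. Closest to Lsp1beta were CG3513 (0.44), the Jonah protease gene Jon99Ci (0.44), CG34166 (0.44), a second Jonah protease gene, Jon25Bi (0.48), and tobi (0.55). Jonah genes encode digestive serine proteases of the gut. Jon99Ci was at 70, 12, 10 and 12 FPKM for males and 71, 5, 5 and 4 for females. Jon25Bi was at 132, 33, 25 and 20 FPKM and at 531, 30, 33 and 32. Closest to Lsp2 were Jon25Bi (0.78), Lsp1beta itself (0.80), Jon99Ci (0.84), CG34166 (0.95) and CG3513 (0.98). Lsp2 in turn ranked 11th for Lsp1beta. For Lsp1alpha, detected in 1 library only, the nearest genes were Jon25Bii (0.42), CG10407 (0.43) and Drsl4 (0.43), and Lsp1beta ranked 15th.

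**Figure D4:**
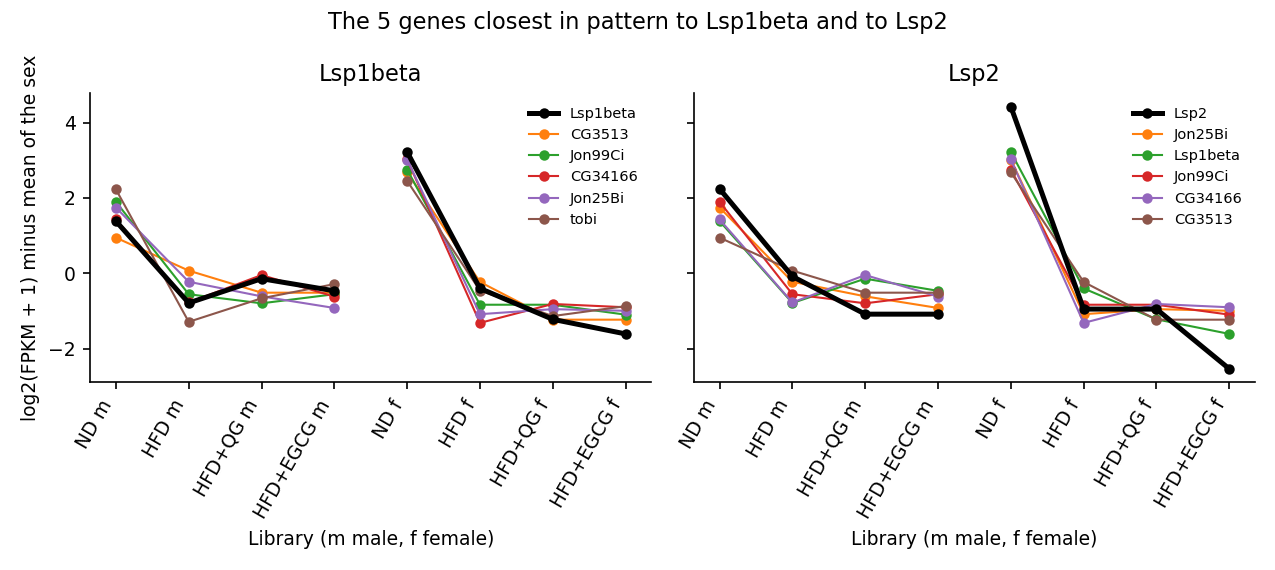
Level of Lsp1beta (left) and Lsp2 (right), each in black, with the 5 genes closest to it in pattern, as log2(FPKM + 1) minus the mean of the sex, in the 8 libraries; 1 library per point, males then females. In all of them the ND library is the highest of its sex, and Lsp2 lies above its nearest genes in ND females (123 FPKM).

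The 22 genes at least 2-fold lower than ND in every high-fat library of both sexes included 21 protein-coding genes, and 15 were at 10 FPKM or more on ND in both sexes. Lsp1beta was among these 15 and Lsp2, at 9 FPKM in ND males, was not. A further product of the fat body in the group was fit, a female-biased gene for a secreted satiety signal, at 15, 7, 5 and 3 FPKM for males and 375, 161, 89 and 106 for females. Digestive genes in the group included the maltase genes Mal-A6 and Mal-A8, the Jonah genes Jon99Ci and Jon25Bi and the amylase gene Amy-p. Amy-p was at 1110, 310, 375 and 464 FPKM for males and 1407, 516, 418 and 593 for females. In the same group, Sodh-1, a sorbitol dehydrogenase gene, was at 191, 58, 65 and 51 FPKM and at 23, 7, 10 and 11.

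The genes next to the Lsp genes were examined as well. None of the 3 nearest protein-coding genes on each side (2 before Lsp1gamma) was at least 2-fold lower than ND in all 3 high-fat libraries of either sex, where 1.04% of all genes in males and 1.31% in females were. Of these 23 neighbours 16 were tested and 4 were at 0 in every library, so a count of 0 says little. CG11534, 277 bases beyond Lsp2, was at 7, 6, 6 and 7 FPKM for males and at 12, 10, 9 and 10 for females. The gene yps, 4243 bases before Lsp2, encodes a Y-box RNA-binding protein and was at 206, 228, 221 and 190 FPKM for males and 187, 199, 209 and 186 for females. PNUTS, a phosphatase 1 regulator before Lsp1beta, was at 35, 39, 37 and 36 FPKM and at 34, 36, 32 and 32. The deposited annotation also places the Lsp genes among 212 genes of the lipid droplet. Of 195 others tested, 0 in males and 1 in females (0.513%) were at least 2-fold lower than ND in all 3 high-fat libraries, beside 1.04% and 1.31% of all genes. Their median HFD minus ND differences were 0.10 and -0.03, beside 0.0 and -0.12 over all genes.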

How the data were processed

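RNA from 8 libraries, 1 per diet and sex, was measured by strand-specific sequencing with a SureSelect kit after Isogen extraction, per the labels' protocols. The submitters' processing notes name CASAVA 1.8.2, TopHat2 2.1.1 and Cuffdiff 2.2.1, while parameters, the genome build and any scaling between libraries are not given in the sources used here. The deposited values are FPKM per transcript that the authors rounded to whole numbers, and each was treated as a score, since no read count can be had from it. Depth is therefore unknown, and neither counting intervals nor count models could be used.

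Transcript values were summed per FlyBase gene, giving 17655 genes from 34475 transcripts. Start and end matched BDGP6.54 (Ensembl) for 17286 of 17431 genes (99.2%). Values were analysed as log2(FPKM + 1) for genes at 1 FPKM or more in at least 1 library of each sex (9848 genes). Within a sex, differences between 2 libraries were described without a test. With limma 3.58.1 in R 4.3.3, a model of sex and diet (3 residual and 2.27 prior degrees of freedom) and one of sex, high-fat diet and their interaction (4 and 0.954) were fitted with a trended prior and Benjamini-Hochberg adjustment over all genes at 0.05. In the first, a diet effect that differs between sexes counts as error; in the second, a polyphenol effect does. The first model was checked on simulated data.

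The 4 genes and all lists were chosen with earlier results of these data known. Named genes were the 4 genes, members of the lists (hexamerin receptor and relatives, fat body secreted carriers, fat body metabolic and regulatory genes, nutrient signals, aromatic amino acid breakdown, amino acid transport and sensing, ecdysone and juvenile hormone genes, and markers of larval stage, fat body, egg, male, muscle, haemocyte and gut), the 5 genes closest in pattern, and the 3 nearest coding genes on each side. Of 130 list symbols 129 were found. Amy-p, Mal-A8, Sodh-1, fit and CG7320 were picked for naming after their values were seen, as was the use of Cyp4g1 as an example of a listed 0. Alternatives were other pseudocounts (0.5 and 5), scaling to a common sum, median centring, no filter, a filter at 10 FPKM, a filter within each sex (chosen after seeing the data), limma without a trend, and leaving out each library.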

Additional observations from a re-analysis of the deposited data

Results flagged for a closer look

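The high-fat change of Lsp1beta was lower in females than in males by a signed log2 difference of -2.44 (limma adjusted p 0.0479, interval -4.31 to -0.58), with 3 high-fat libraries against 1 ND library in each sex. The spread between ND libraries was not measured, 42.7% of all genes passed the same test, and 7 of 13 alternatives ended the call. Under HFD+QG, Lsp1beta stood at 24 FPKM in males against 15 on HFD, and in females at 16 against 29, so the change from HFD was lower in females by -1.46 on the log2(FPKM + 1) scale. Under HFD+EGCG the male level was 19 FPKM against 15 and the female level 12 against 29, a difference of -1.53. These last 2 differences each rest on 4 libraries with no replicate and were not tested, and they share the HFD libraries.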

How the results depend on the processing

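No paired analysis was possible because each group has 1 library; sex entered the model as a term. Depth is unknown, and values of 0 to 2 FPKM rest on rounding. Under every alternative in which they were tested, Lsp1beta and Lsp2 stayed lower on the high-fat diets than on ND. Lsp2, at 9 FPKM in ND males, did not pass the 10 FPKM filter and was not tested under it. For HFD minus ND, leaving out 1 library gave -4.12 to -1.67 for Lsp1beta and -5.30 to -2.39 for Lsp2, and for the mean of the 3 high-fat diets -4.29 to -1.85 and -5.90 to -2.99. The lowest of each pair came without the ND male library, the only setting in which either passed. Those omissions moved the genes called from 0 to at most 3839 and 4375. In several comparisons between high-fat diets and between the sexes, the sign turned when 1 library was left out. For HFD+QG minus HFD the ranges were -0.81 to 0.63 (Lsp1beta) and -1.08 to 0.077 (Lsp2). For HFD+EGCG minus HFD the range of Lsp1beta was -1.20 to 0.32. For HFD+EGCG minus HFD+QG the ranges were -1.12 to 0.41 (Lsp1beta) and -1.76 to 0.17 (Lsp2). Female minus male Lsp1beta ranged from -0.090 to 0.90, where -0.090 came without either ND library. Lsp2 kept its sign for HFD+EGCG minus HFD (-2.26 to -0.33) and for female minus male (0.72 to 1.93).

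The sex difference in the high-fat change of Lsp1beta was -2.46 with a pseudocount of 0.5 and -2.44 without a filter, neither passing. It was -2.78 to -2.18 with 1 high-fat library left out (limma adjusted p 0.0223 to 0.0998), and it could not be fitted without an ND library. That of Lsp2 passed with a pseudocount of 5 (-2.96, limma adjusted p 0.00473). Median centring moved the median high-fat change of all genes from -0.04 to 0.07.

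Counts of genes depended on the filter and the pseudocount, and the cause was not tested beyond the number of genes kept. Genes 2-fold lower in all 3 high-fat libraries numbered 43 in males and 50 in females with a pseudocount of 5, 43 in each sex with the 10 FPKM filter, 200 and 285 without a filter or with one within the sex, and 66 in females after median centring. Genes at least 2-fold different in either direction between HFD+QG and HFD numbered 71 in males and 60 in females with a pseudocount of 5, 70 and 66 with the 10 FPKM filter, and in males 135 at a common sum and 602 without a filter or with one within the sex. For HFD+EGCG against HFD the numbers were 80 and 55, 81 and 53, and in males 171 and 676. Without a filter limma called 8 genes for HFD against ND, 9 for the 3 high-fat diets, and 2 each for HFD+QG against HFD and HFD+EGCG against HFD+QG. With the 10 FPKM filter 4022 genes differed between the sexes, and 4721 to 6986 with 1 library left out.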
